A study of Mus musculus with 16 samples.

Results

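Interferon-stimulated genes are the genes that cells switch on when interferon binds its receptors, and 40 of them were followed here through ear skin of B6 mice. They were taken by symbol from a list of well-known members of the response. Each of the 40 matched 1 row of a table of 48440 genes, and all 40 were among the 17604 genes with enough counts to be tested. Mice were fed normally (normal diet, ND) or with high-fat feed for 8 weeks (HFD), and their ears were left untreated or received phorbol myristate acetate (PMA, 200 ng per ear), with collection 24 hours later. PMA activates protein kinase C and is a standard irritant for producing skin inflammation. The 4 groups were ND and HFD skin without PMA and ND and HFD skin with PMA, each with 4 libraries, 1 per mouse according to the design text. The labels give 1 treatment text for every sample, so it leaves unstated whether solvent alone was put on untreated ears, and the sources used here give no age or sex of the mice.

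Type I interferons signal through the receptor chains IFNAR1 and IFNAR2 to a complex that contains STAT2 and IRF9. This complex binds the interferon-stimulated response element (ISRE) and raises genes whose products sense viral nucleic acid, degrade RNA, block translation or tag proteins with ISG15. In skin, keratinocytes, resident and recruited macrophages and plasmacytoid dendritic cells are known sources or responders. These data are from whole ear tissue, in which fewer cells of a type and less RNA per cell cannot be told apart.

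The promoters of several members are shown because the ISRE is what the family is known to share. They come from RefSeq on GRCm38.p6, in windows from 250 bases before to 50 bases after each gene's start, and 30 of the 40 members had an entry. The letters searched were GAAANNGAAA and its reverse complement TTTCNNTTTC, and capitals mark every match before the start, overlapping matches being joined. The stretches below belong to 3 members that rose with PMA (Oas1a, Rsad2 and Trim30a), to Oas1g, the near copy of Oas1a, and to 5 well-known members that passed no test (Isg15, Ifit1, Ifit3, Ifit3b and Cxcl10). All are read 5′ to 3′ on the strand of the gene.
Oas1a, chr5:120907526-120907565, minus strand: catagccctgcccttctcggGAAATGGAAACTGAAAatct
Oas1g, chr5:120887614-120887651, minus strand: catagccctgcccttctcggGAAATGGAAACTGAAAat
Rsad2, chr12:26456543-26456592, minus strand: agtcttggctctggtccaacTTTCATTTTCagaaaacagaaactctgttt
Trim30a, chr7:104465200-104465249, minus strand: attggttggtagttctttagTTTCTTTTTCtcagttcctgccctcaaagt
Isg15, chr4:156200855-156200916, minus strand: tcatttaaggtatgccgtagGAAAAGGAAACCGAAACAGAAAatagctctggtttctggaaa
Ifit1, chr19:34640765-34640833, plus strand: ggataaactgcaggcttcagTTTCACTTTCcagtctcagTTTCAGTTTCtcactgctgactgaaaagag
Ifit3, chr19:34583353-34583436, plus strand: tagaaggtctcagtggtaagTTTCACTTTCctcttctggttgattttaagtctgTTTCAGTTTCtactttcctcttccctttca
Ifit3b, chr19:34607749-34607832, plus strand: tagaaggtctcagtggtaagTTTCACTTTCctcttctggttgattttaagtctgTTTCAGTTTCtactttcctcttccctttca
Cxcl10, chr5:92349073-92349122, minus strand: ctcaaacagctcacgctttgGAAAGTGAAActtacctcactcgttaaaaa

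The ISRE letters occurred in 17 of the 30 members with an entry (56.7%), against 3.99% of 27025 genes with a window of the same length. The stretches of Oas1a and Oas1g carry the same joined matches, and those of Ifit3 and Ifit3b are identical over all printed bases. The letters GGGANNNNCC of an NF-kB site were found in 8 of the 30 (26.7%) and in 22.92% of all genes. The letters TTCNNNGAA of a gamma-activated site were found in 6 of the 30 (20.0%) and in 9.55% of all genes. These members were Oas1a, Ifi35, Ifit2, Eif2ak2, Isg20 and Bst2. Both strands were searched, each motif on its own, so that matches of different motifs may share bases. Among the 8 members that rose with PMA in either diet, 6 had an entry and 3 of these held the ISRE letters. Among the 32 others, 24 had an entry and 14 held them. The windows of Oasl1, Oasl2 and Ifi35, all called below, did not hold the ISRE letters. A match is a description of letters in a window, not a bound site.

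The members sit in several clusters of related genes. On GRCm38, with positions from GENCODE M21, Oas1a, Oas1b, Oas1g, Oas2 and Oas3 lie within chr5:120730333-120907521, and Oasl1 and Oasl2 within chr5:114896936-114937915. The 4 Ifit genes lie within chr19:34550694-34650009, the Mx pair within chr16:97447035-97560900 and the Gbp pair within chr3:142560026-142638008. Rsad2 and Cmpk2 are neighbours within chr12:26442746-26479837. Near-identical copies make some counts uncertain, because reads that fit more than 1 gene may be dropped or assigned to either. Of all 100-base windows of the Oas1a transcript, 40.9% occurred in another gene, Oas1g, and 38.2% of those of Oas1g occurred in Oas1a. The same share was 31.7% for Ifit3 and 27.4% for Ifit3b, which share sequence with each other. It was 20.9% for Herc6 and 11.2% for Rtp4, shared with Gm45193 and Gm45338. In addition, exons of 13 members overlap an exon of some other gene, for 8 members purely in antisense orientation, and the library method keeps no strand. Among these are Ifi35 with Gm11626, Irf7 with Phrf1, Dhx58 with Dhx58os and Cxcl10 with Art3.

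Library totals ranged from 7739487 to 15571389 counts, so that 1 CPM (counts scaled to the library total) stood for about 8 to 16 counts. No pair of libraries within a group agreed within sampling noise (smallest chi-square per degree of freedom 10.01). Keratinocyte markers were abundant under the ear-skin label. The summed level of 6 keratinocyte markers lay between 17744 and 34238 CPM, and none was at 0. Cell-type markers differed with diet. In untreated skin keratinocyte markers summed to 17744 to 21801 CPM in ND and 25708 to 29790 CPM in HFD libraries. Fibroblast markers summed to 7112 to 8808 and 4548 to 5275 CPM. Of 6 keratinocyte markers 4 were called higher in HFD and 0 lower, and of 5 fibroblast markers 0 higher and 3 lower. Over all genes tested 2.87% were higher and 1.06% lower. Their part in the members' diet estimates was not tested. PMA changed cell-type markers broadly as well. Summed neutrophil markers were 9.55 to 22.6 CPM in untreated ND and 21.4 to 60.4 in untreated HFD, with Retnlg at 0 there, against 85.4 to 257 in PMA-treated ND and 291 to 1215 in PMA-treated HFD libraries. For diet, 1 of the 6 neutrophil markers was called higher and 0 lower in untreated HFD skin. In PMA-treated skin 0 of the 6 were called for diet, with 5 estimates higher and 1 lower, against 0.943% of all genes called higher and 1.26% lower. The library identifiers begin with RHS in the 4 untreated ND libraries and in untreated HFD replicate 1, and with RHP in the other 11, and the sources used here do not say what this prefix marks.

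Levels per length were compared as mean RPKM (CPM per kilobase of the gene length given in the table) over the 16 libraries. Ifi27, which encodes a small hydrophobic protein, was highest at 35.7 RPKM. Next came Ifi35 at 13.2, Irf9 at 11.04, Trim25 at 10.6 and Stat2 at 7.81 RPKM. The lowest were Cxcl10 at 0.301, Herc6 at 0.220, Mx2 at 0.205 and Ifi44 at 0.181 RPKM. The 3 abundant transcription and ubiquitin-ligase genes among the top 5 are thus present in untreated skin, whereas several textbook members were close to the detection limit. Cxcl10 had under 10 counts in 12 of the 16 libraries, Mx2 in 11, Isg15 in 10, Ifi44 in 9, Oas1g in 8, Zbp1 and Oas3 in 7, Oasl1 in 6 and Mx1 in 5.

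**Figure D1:**
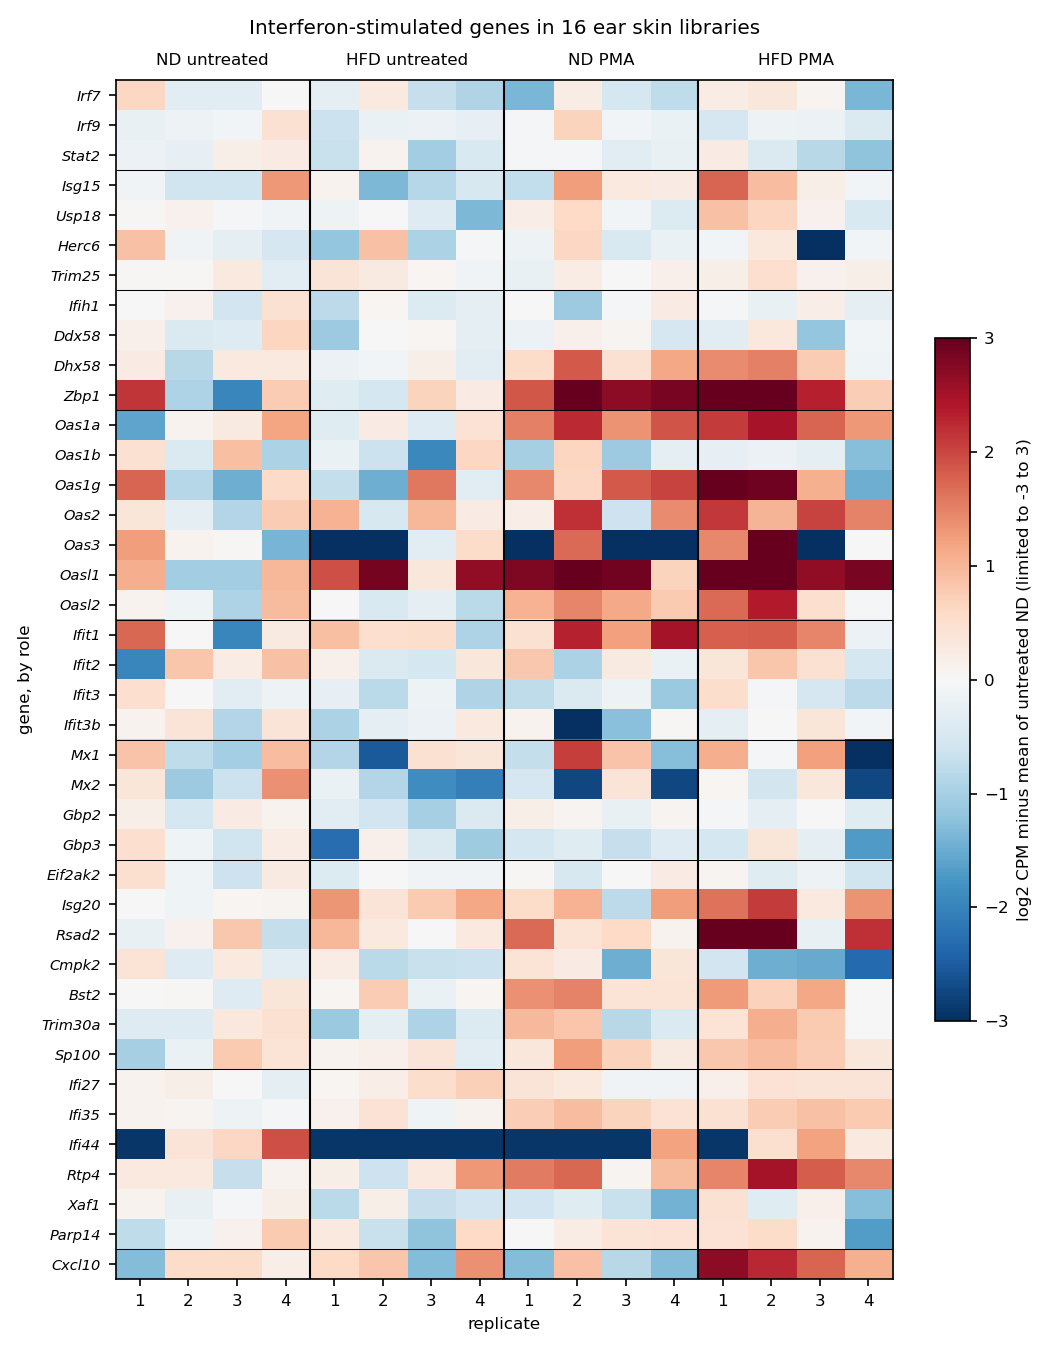
Heat map of the 40 members (rows, ordered by role) in the 16 libraries (columns, replicates 1 to 4 of each group), coloured by log2 CPM minus the mean of the 4 untreated ND libraries and limited to -3 and 3. The OAS family rows and Zbp1 are red in most PMA-treated libraries, with Oas1b and Oas3 as exceptions, while PMA-treated HFD replicate 4 was the lowest of its group in 27 of the 40 members.

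PMA raised few of the interferon-stimulated genes in ND skin. Of the 40 members 3 rose and 0 fell, by edgeR's quasi-likelihood test with a Benjamini-Hochberg-adjusted p under 0.05 over all genes tested. Over all 17604 genes 8.96% rose and 3.99% fell in the same comparison, so the members' share (7.5% higher) was near the background. The members' median log2 fold change was 0.11, against 0.00 over all genes tested, with 24 estimates higher and 16 lower, whereas 50.1% of all genes had a higher estimate. Without PMA-treated ND replicate 2 the members' median was -0.04. P-values here measure the spread between these libraries.

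Oasl1 and Oas1a belong to the oligoadenylate synthetase family, whose enzymatically active members, such as Oas1a, make the second messenger of RNase L, and Oasl1 has no such activity and is known as a regulator of Irf7 translation. Oasl1 stood at 0.617, 0, 0 and 0.561 CPM in untreated ND replicates 1 to 4 and at 2.41, 4.70, 2.60 and 0.411 in PMA-treated ND replicates 1 to 4. PMA-treated replicate 4 lay within the untreated range and the other 3 above it. The log2 fold change of Oasl1 was 3.14 ± 0.95 (SE, edgeR adjusted p = 0.0326), from 0.295 ± 0.341 to 2.53 ± 1.75 CPM (SD, n = 4 each).

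Oas1a was at 0.370, 1.61, 1.83 and 3.59 CPM in the untreated ND libraries and at 4.56, 7.59, 4.05 and 5.96 with PMA. All 4 PMA-treated libraries were above all 4 untreated ones. The mean went from 1.85 ± 1.33 to 5.54 ± 1.59 CPM, a log2 fold change of 1.57 ± 0.49 (SE, edgeR adjusted p = 0.0386). Ifi35 encodes a cytoplasmic protein that binds NMI and is induced by interferon. Its values were 18.3, 17.9, 15.3 and 16.4 CPM without PMA and 28.5, 32.1, 26.9 and 22.9 CPM with PMA, again with no overlap. Ifi35 rose from 17.0 ± 1.38 to 27.6 ± 3.81 CPM, by 0.70 ± 0.18 on the log2 scale (SE, edgeR adjusted p = 0.0107), the smallest of the 3 changes and the one with the smallest error.

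Besides Oas1a and Ifi35, the 4 PMA-treated ND libraries stood above the 4 untreated ones in Dhx58 and Bst2, which makes 4 of 40 members, against 10.6% of all genes tested. Xaf1 was the 1 member in which they all stood below, against 6.25% of all genes. Dhx58 encodes LGP2, the RIG-I-like receptor without signalling domains. It was at 4.02 ± 1.29 CPM without and 8.48 ± 4.12 CPM with PMA (edgeR adjusted p = 0.0835). Bst2, the tetherin that holds budding virus at the cell surface, was at 3.27 ± 0.715 and 6.65 ± 2.70 CPM (edgeR adjusted p = 0.0874). Xaf1, an antagonist of the apoptosis inhibitor XIAP, was at 5.79 ± 0.699 and 3.46 ± 1.01 CPM (edgeR adjusted p = 0.250). These 3 genes were singled out after their values were seen.

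Of the 3 calls in ND skin, that of Ifi35 was kept with each library left out in turn, and the other two were not. Oas1a was called neither without untreated ND replicate 1, 2 or 3, without PMA-treated ND replicate 1, 2 or 4, nor without replicate 2 of untreated HFD or replicate 1, 2 or 3 of PMA-treated HFD, which only share the estimate of spread (edgeR adjusted p from 0.0502 to 0.109). Oasl1 was lost without untreated ND replicate 2 or 3 or PMA-treated ND replicate 1, 2 or 3 (edgeR adjusted p from 0.0519 to 0.0951). In ND mice the identifier prefix and the treatment coincide, so they cannot be told apart within ND. With the prefix as a term, whose estimate rests on untreated HFD replicate 1, 0 members were called and Ifi35 had an edgeR adjusted p of 0.378.

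In HFD skin 7 of the 40 members rose with PMA and 0 fell (17.5% higher). Over all genes tested 7.34% rose and 4.6% fell. The median log2 fold change of the members was 0.61, against -0.02 over all genes, and 35 of the 40 estimates were higher, whereas 48.5% of all genes had a higher estimate. The 7 were Zbp1, Rsad2, Oas1a, Oasl2, Rtp4, Trim30a and Ifi35. In 5 members (Zbp1, Oas1a, Trim30a, Ifi35 and Rtp4) all 4 treated libraries stood above all 4 untreated ones, against 10.8% of all genes, and in 0 members all stood below (7.93% of all genes).

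Zbp1 encodes a sensor of Z-form nucleic acid that can start necroptosis. It was at 0.371, 0.309, 0.944 and 0.652 CPM in untreated HFD replicates 1 to 4 and at 5.87, 6.44, 3.37 and 1.00 CPM in PMA-treated HFD replicates 1 to 4. Replicate 4 of the treated group stood just above the untreated range. The mean rose from 0.569 ± 0.291 to 4.17 ± 2.50 CPM, a log2 fold change of 2.84 ± 0.86 (SE, edgeR adjusted p = 0.0352). In ND skin the estimate was 2.48 ± 0.83 and missed the threshold (edgeR adjusted p = 0.0561), with values of 2.96, 0.189, 0 and 1.01 CPM without PMA and 2.41, 10.9, 4.33 and 4.93 CPM with it. Only untreated ND replicate 1 reached into the treated range.

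Rsad2 encodes viperin, a radical-SAM enzyme that makes a chain-terminating nucleotide. It was at 2.22, 1.31, 1.02 and 1.30 CPM in untreated HFD libraries and at 12.7, 9.62, 0.861 and 5.39 CPM with PMA. Treated replicate 3 was below every untreated library, and the other 3 were above all of them. The mean went from 1.46 ± 0.525 to 7.15 ± 5.15 CPM, by 2.29 ± 0.64 on the log2 scale (SE, edgeR adjusted p = 0.0228). In ND skin Rsad2 was at 1.12 ± 0.584 CPM without and 1.98 ± 1.19 CPM with PMA (edgeR adjusted p = 0.483).

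The OAS family had 2 of its 7 members called in each diet, Oas1a in both, Oasl1 in ND and Oasl2 in HFD skin, against 8.96% of all genes higher in ND and 7.34% in HFD, with a median log2 fold change of 1.11 in ND and 1.85 in HFD. Oas1a was at 1.11, 1.78, 1.09 and 2.06 CPM in untreated HFD and at 6.93, 9.06, 5.32 and 3.89 CPM in PMA-treated HFD libraries, with no overlap. Its log2 fold change was 2.06 ± 0.50 (SE, edgeR adjusted p = 0.00955), the smallest adjusted p of any member in any comparison. Oasl2, a relative with ubiquitin-like domains, was at 5.07, 3.63, 4.07 and 2.82 CPM without and 16.8, 27.3, 7.20 and 4.89 CPM with PMA. Treated replicate 4 lay within the untreated range, and the other 3 above it. Oasl2 rose by 1.85 ± 0.45 on the log2 scale (SE, edgeR adjusted p = 0.0102), from 3.90 ± 0.934 to 14.0 ± 10.2 CPM. Oasl1, called in ND, was at 1.24, 2.55, 0.291 and 2.17 CPM in untreated HFD and at 6.16, 3.58, 2.19 and 2.51 CPM in treated HFD libraries (edgeR adjusted p = 0.409). Among the family members called in neither diet, Oas2 was at 3.71 ± 1.69 and 8.50 ± 2.89 CPM in HFD skin without and with PMA (edgeR adjusted p = 0.172). Oas3 ranged from 0 to 19.5 CPM within the 4 treated HFD libraries alone.

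Rtp4 encodes a chaperone of G-protein-coupled receptors that is induced by interferon. Its levels were 2.97, 1.62, 3.20 and 6.62 CPM in untreated HFD libraries and 7.41, 15.4, 9.55 and 7.40 CPM with PMA. All treated libraries were above all untreated ones, and replicate 2 was the highest. Rtp4 rose by 1.47 ± 0.44 on the log2 scale (SE, edgeR adjusted p = 0.0329), from 3.60 ± 2.13 to 9.95 ± 3.79 CPM. Trim30a, a tripartite-motif protein known to restrain signalling by innate receptors, was at 3.34, 6.18, 3.85 and 5.54 CPM without and 10.01, 15.98, 12.92 and 7.52 CPM with PMA. The groups did not overlap. Its log2 fold change was 1.29 ± 0.39 (SE, edgeR adjusted p = 0.0347). Ifi35 stood at 18.5, 22.8, 15.4 and 18.2 CPM in untreated HFD and at 23.1, 28.8, 31.2 and 29.3 CPM in treated HFD libraries. The treated libraries were again the higher 4, with replicate 1 close to the untreated maximum, and the log2 fold change was 0.58 ± 0.18 (SE, edgeR adjusted p = 0.0349).

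**Figure D2:**
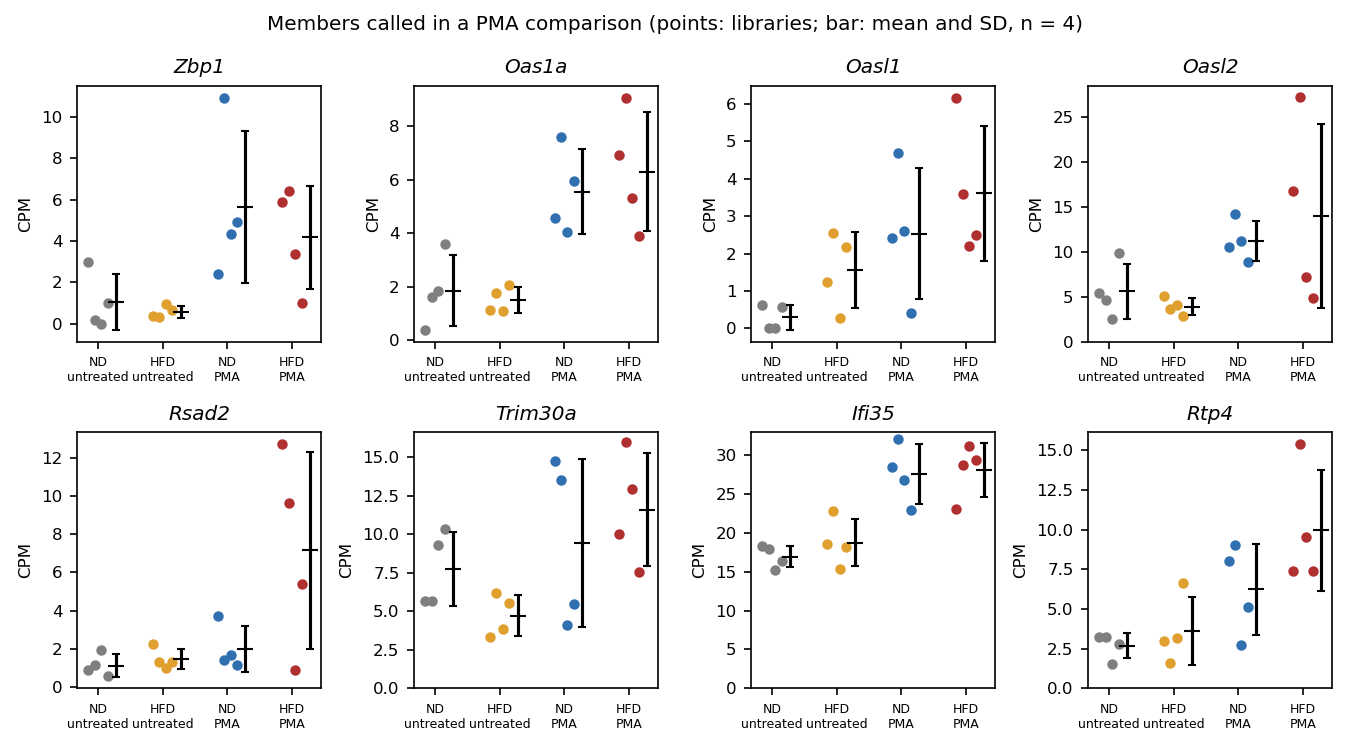
CPM of the 8 members called in either PMA comparison, 1 panel per gene, with the 4 groups on the horizontal axis, points for libraries and a bar for the mean and SD (n = 4). Oas1a and Ifi35 are higher with PMA in both diets without overlap, while Oasl2 and Rsad2 spread widely in PMA-treated HFD skin.

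The number of members called in HFD skin moved with single libraries and, for some members, with the fit. It was 1 (Oas1a) without PMA-treated HFD replicate 2, 2 without untreated HFD replicate 3, 3 without untreated HFD replicate 1 or 4, and 4 without untreated HFD replicate 2 or PMA-treated HFD replicate 3. It was 7 without PMA-treated HFD replicate 4, with Dhx58 in place of Ifi35, and was 9 without PMA-treated ND replicate 2. Leaving out untreated HFD replicate 1 also leaves only libraries of the RHP prefix in this comparison. Oas1a was called in all 25 settings run, with edgeR or DESeq2 adjusted p up to 0.0473, and Oasl2 in all but the setting without PMA-treated HFD replicate 2 (edgeR adjusted p = 0.0794). Ifi35 was lost without untreated HFD replicate 1, 3 or 4 or PMA-treated HFD replicate 2, 3 or 4 (edgeR adjusted p from 0.0682 to 0.143), and also with upper-quartile scaling (0.0570), no filter on low counts (0.0897), only the groups compared (0.0541) or the identifier prefix as a term (0.0695). Zbp1 was lost without any 1 untreated HFD library or treated replicate 1 or 2 (edgeR adjusted p from 0.0574 to 0.108), and Trim30a without untreated replicate 1, 3 or 4 or treated replicate 1, 2 or 3 (0.0505 to 0.138). Rtp4 was lost without replicate 1, 2 or 3 of the untreated or 2 or 3 of the treated HFD libraries (edgeR adjusted p from 0.0543 to 0.153), and Rsad2 without untreated replicate 2, 3 or 4 or treated replicate 1 or 2 (0.0634 to 0.0975).

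Well-known members that passed no test with PMA in either diet included all 3 transcription factors. Irf7, the factor that amplifies interferon production, was at 31.5, 16.5, 16.4 and 20.3 CPM in untreated ND, 16.8, 25.1, 12.5 and 10.9 in untreated HFD, 7.71, 23.9, 14.2 and 11.9 in PMA-treated ND and 24.0, 26.1, 21.8 and 7.77 in PMA-treated HFD libraries. The 4 ranges overlap, and the largest of its diet and PMA effects, with PMA in ND, was -0.54 on the log2 scale with a 95% interval of -1.31 to 0.22. Irf9 had group means of 65.1, 51.5, 69.7 and 51.6 CPM in the same order, and Stat2 of 41.2, 29.6, 36.7 and 29.8 CPM. The 95% interval of the PMA effect on Irf9 was -0.29 to 0.50 in ND and -0.40 to 0.40 in HFD skin, so changes of 2-fold in either direction lie outside it. For Stat2 it was -0.71 to 0.37 and -0.53 to 0.56.

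Isg15, the ubiquitin-like modifier that gives the pathway its name, was at 0.617, 0.378, 0.384 and 1.91 CPM in untreated ND and 0.332, 1.87, 0.867 and 0.822 in PMA-treated ND libraries. In HFD skin it was at 0.741, 0.155, 0.291 and 0.434 CPM without and 2.70, 1.43, 0.783 and 0.627 CPM with PMA. The HFD groups overlap by 1 treated library, replicate 4, and the estimate was 1.79 ± 0.84 (SE, edgeR adjusted p = 0.198). At these few counts a change of this size was not detectable. Usp18, the protease that removes ISG15 and damps the receptor, was at 6.94 ± 0.527 and 7.52 ± 2.29 CPM in ND and at 5.24 ± 1.89 and 9.12 ± 3.51 CPM in HFD skin without and with PMA (edgeR adjusted p = 0.874 and 0.146). Trim25, the ubiquitin ligase that acts on RIG-I, varied little, between group means of 56.5 and 66.5 CPM.

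The 4 IFIT genes, whose products bind non-self RNA and block its translation, had no called member. Their median log2 fold change with PMA was -0.42 in ND and 0.41 in HFD skin. Ifit1 was at 2.97 ± 2.85 and 7.68 ± 4.49 CPM in ND without and with PMA (edgeR adjusted p = 0.179), while Ifit3 was at 13.8 ± 3.80 and 9.02 ± 2.58 CPM (edgeR adjusted p = 0.227). Of the GTPases Mx1, Mx2, Gbp2 and Gbp3, none was called in any comparison, and the RNA sensors Ifih1 (MDA5) and Ddx58 (RIG-I) differed by at most 0.25 on the log2 scale with PMA. Ifi27 was at 45.0 ± 6.23, 58.7 ± 12.3, 48.8 ± 8.82 and 56.8 ± 4.71 CPM in untreated ND, untreated HFD, treated ND and treated HFD libraries. The most abundant member per length was therefore within 2-fold of itself in all 4 comparisons by its 95% intervals, which reached at most 0.73 on the log2 scale.

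**Figure D3:**
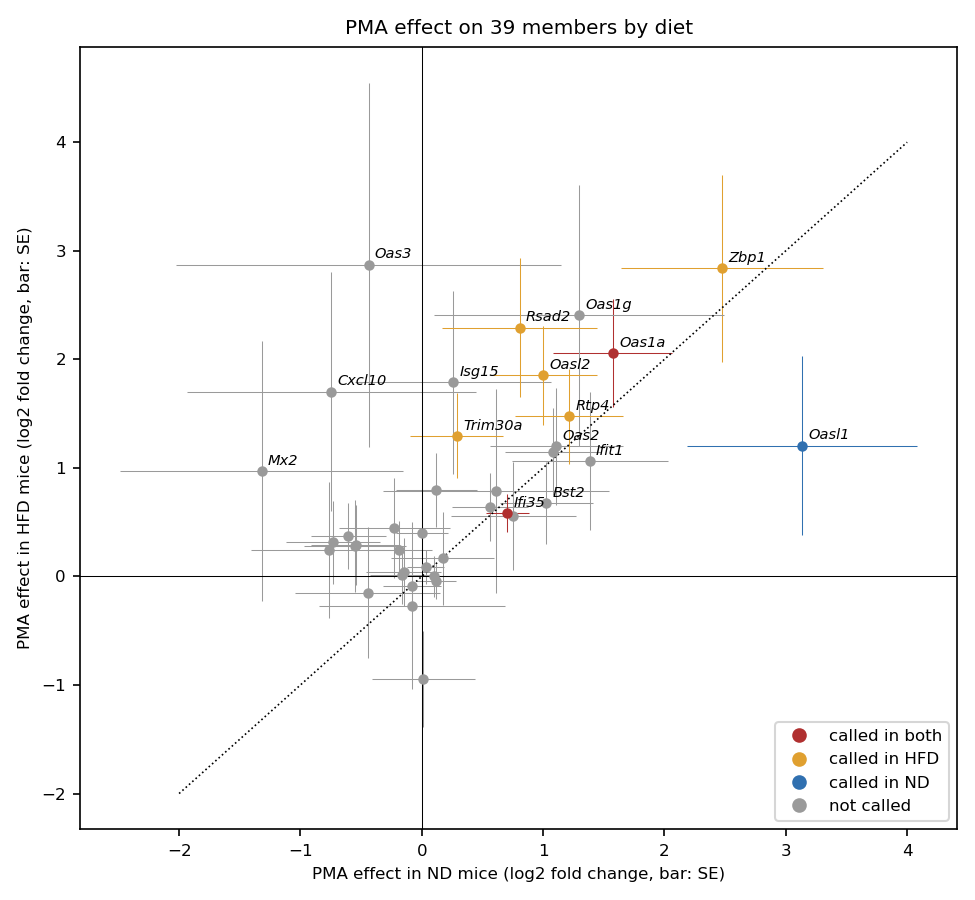
Log2 fold change with PMA in HFD skin against that in ND skin for the members, with error bars of 1 SE and colours for the comparisons in which a member was called. Ifi44 is left out because untreated HFD libraries had 0 counts, and most points lie above 0 on the HFD axis, where 35 of the 40 estimates were higher.

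The response to PMA was not shown to differ between diets for any member. The interaction test called 0 of the 40 members (0.00568% of all genes tested), and 2 had an unadjusted p under 0.05, against 4.63% of all genes. DESeq2 called 0 as well. The smallest edgeR adjusted p among the members was 0.815, for Ifi44, and the next was 0.999. Both diets shared the calls of Oas1a and Ifi35, of which Ifi35 lost that in HFD skin in 10 of 25 other settings (edgeR adjusted p up to 0.143). In ND skin the call was lost in 13 of 25 settings for Oas1a and in 1 of 25 for Ifi35. Of the 8 members called in either diet 5 were called in HFD alone and 1 in ND alone, but the difference between diets was not past the threshold for any of them. The estimate was larger in HFD skin for 29 of the 40 members, against 44.9% of all genes tested, and 13 members had a higher estimate in HFD and a lower one in ND. The intervals of these differences are wide, with a median width of 1.29 log2 units to either side, and only 6 members had an interval within 2-fold in both directions. Ifit3, Xaf1 and Trim30a had the smallest p after Ifi44, with differences of 0.98 ± 0.43, 1.05 ± 0.55 and 1.01 ± 0.54 (SE) on the log2 scale. The untreated ND libraries, all of the RHS prefix, enter each of these differences, so the prefix partly coincides with the interaction.

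No member was called for diet, with or without PMA. In untreated skin 0 of 40 were called, against 3.93% of all genes tested (2.87% higher and 1.06% lower in HFD), and 4 had an unadjusted p under 0.05, against 16.5% of all genes. The median log2 difference, HFD against ND, was -0.33, against -0.02 over all genes. Of the 40 estimates 30 were lower and 10 higher, whereas 47.6% of all genes had a higher estimate. All 4 untreated ND libraries carry the RHS prefix, as does only replicate 1 of untreated HFD. Diet and prefix therefore largely coincide in untreated skin and can hardly be told apart. With PMA 0 of 40 were called, against 2.2% of all genes (0.943% higher and 1.26% lower in HFD), and 4 had an unadjusted p under 0.05 (15.5% of all genes). The median there was 0.21 against -0.03, and 26 estimates were higher and 14 lower, whereas 46.6% of all genes had a higher estimate. DESeq2 called 0 and 1 members in these comparisons. For 9 members in untreated and 13 in PMA-treated skin the 95% interval lay within 2-fold in both directions, and for the others a change of 2-fold lay within the interval in at least 1 direction. A 2-fold rise with HFD lay outside the interval of 26 members in untreated and 16 in PMA-treated skin, and a 2-fold fall outside that of 15 and 27.

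The 4 members with the smallest p in untreated skin were Ifi44, Gbp2, Oasl1 and Ifi27. Ifi44, a cytoplasmic protein gene induced by interferon, had 0, 1.61, 1.92 and 5.05 CPM in untreated ND libraries and 0 counts in all 4 untreated HFD libraries, where 3 counts over the group would be 0.0682 CPM. Untreated ND replicate 1 was at 0 as well, so the groups meet there. It was at 0, 0, 0 and 2.98 CPM in PMA-treated ND and at 0, 1.75, 2.97 and 1.505 CPM in PMA-treated HFD libraries (edgeR adjusted p = 0.0892 for diet in untreated skin). It was the lowest member per length, and its call depended on a library outside the comparison: without PMA-treated ND replicate 4 the edgeR adjusted p was 0.0470. Gbp2, a guanylate-binding protein that attacks pathogen vacuoles, was at 19.5, 12.0, 20.6 and 18.6 CPM in ND and 13.7, 11.5, 8.64 and 12.8 CPM in HFD skin. Only ND replicate 2 lay within the HFD range, and the difference was -0.60 ± 0.22 on the log2 scale (SE, edgeR adjusted p = 0.142). Oasl1 was 2.43 ± 0.95 higher in its estimate (SE, edgeR adjusted p = 0.179) and Ifi27 0.38 ± 0.17 (SE, edgeR adjusted p = 0.240). Isg20, an RNA exonuclease gene singled out after its values were seen, was the 1 member with all 4 HFD above all 4 ND libraries, against 7.18% of all genes, and no member had all 4 below (5.46% of all genes). It was at 1.37 ± 0.105 and 2.82 ± 0.823 CPM (edgeR adjusted p = 0.331).

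With PMA the 4 members with the smallest p for diet were Cmpk2, Rsad2, Cxcl10 and Irf9. Cmpk2, a mitochondrial nucleotide kinase gene next to Rsad2, was at 9.46, 8.36, 2.46 and 9.15 CPM in ND and 4.72, 2.46, 2.35 and 1.25 CPM in HFD skin. Only ND replicate 3 lay among the HFD values, and the difference was -1.43 ± 0.44 on the log2 scale (SE, edgeR adjusted p = 0.0965). DESeq2 called it (adjusted p = 0.0408), as did edgeR without PMA-treated ND replicate 3 (adjusted p = 0.0406). Its neighbour Rsad2 was at 3.73, 1.42, 1.66 and 1.13 CPM in ND and at 12.7, 9.62, 0.861 and 5.39 CPM in HFD skin, so that the pair had estimates of opposite sign. The difference for Rsad2 was 1.84 ± 0.62 (SE, edgeR adjusted p = 0.132), and it was called without PMA-treated HFD replicate 3 (edgeR adjusted p = 0.0354). Cxcl10, the chemokine that draws CXCR3-bearing T cells, was at 0, 0.643, 0.0722 and 0 CPM in ND and 2.70, 1.99, 1.33 and 0.752 CPM in HFD skin. It was the 1 member whose 4 HFD libraries all stood above the 4 ND libraries (3.93% of all genes), and in none did all stand below (4.71% of all genes). Yet at these low counts the difference of 3.07 ± 1.17 missed the threshold (SE, edgeR adjusted p = 0.189). Irf9 was at 69.7 ± 21.1 and 51.6 ± 6.28 CPM (edgeR adjusted p = 0.261).

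**Figure D4:**
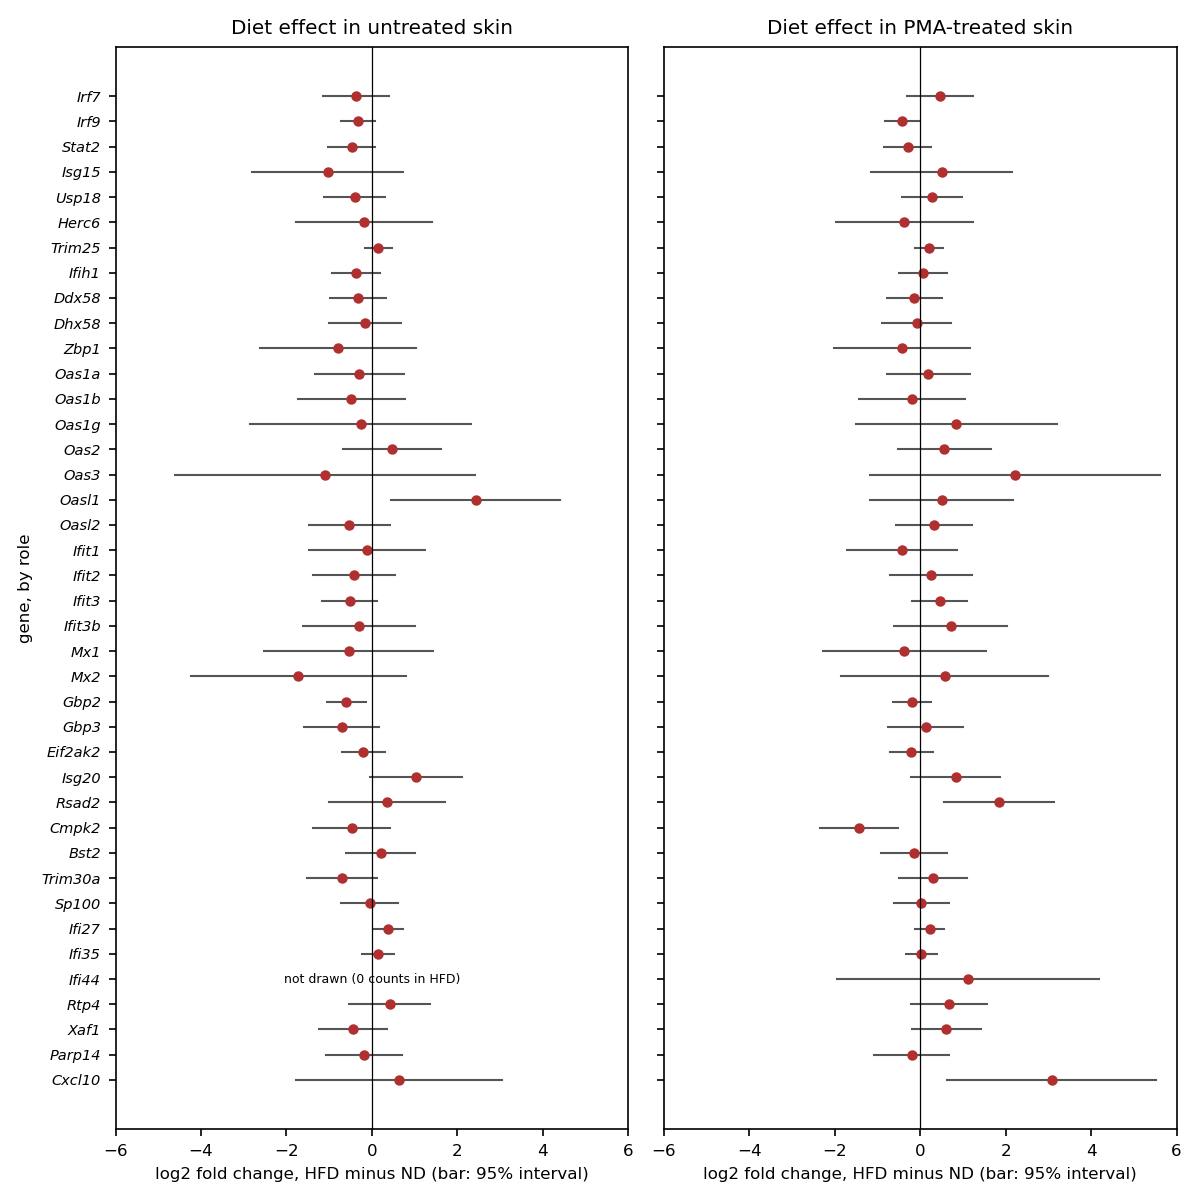
Log2 difference HFD minus ND with its 95% interval for the members in untreated skin and in PMA-treated skin, ordered by role. No member was called in either panel; 30 of the 40 estimates are below 0 in untreated and 14 in PMA-treated skin, and Ifi44 is not drawn for untreated skin, where the HFD libraries had 0 counts.

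Libraries within a group differed in the members as a set. The members' mean log2 CPM was 3.14, 3.22, 2.61 and 2.09 in PMA-treated HFD replicates 1 to 4, so that replicate 4 lay within the untreated ND range of 2.04 to 2.60. It was the lowest of its group in 27 of the 40 members and the highest in 0, while over all genes tested it was lowest in 25.3% and highest in 25.9%. PMA-treated ND replicate 2 was the highest of its group in 23 members (31.9% of all genes), PMA-treated HFD replicate 2 in 20 (25.3%) and untreated ND replicate 4 in 18 (28.3%). The untreated HFD libraries were closest to each other, at 1.96 to 2.17. PMA-treated HFD replicate 4 also had the lowest total of its group, 8169249 counts.

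**Figure D5:**
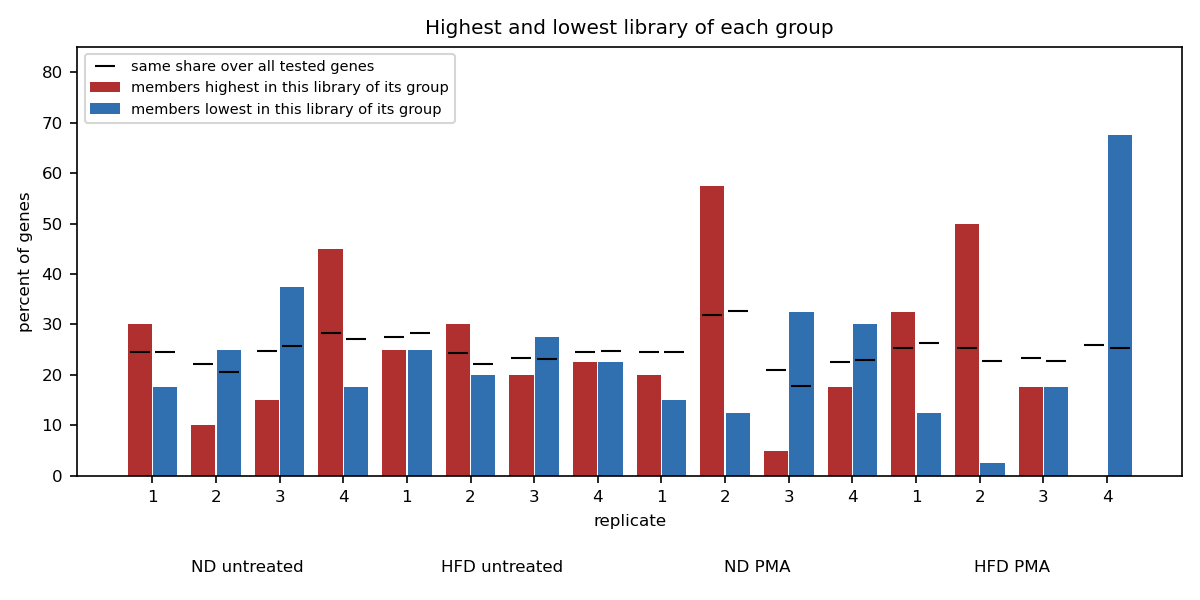
Percent of the 40 members for which each library was the highest (red) or lowest (blue) of the 4 in its group, with black marks for the same percent over all 17604 genes tested. PMA-treated HFD replicate 4 was lowest for 27 members and highest for 0, and PMA-treated ND replicate 2 was highest for 23.

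Markers of macrophages and monocytes followed these library differences in some groups and not in others. Their summed level was 328, 349, 358 and 424 CPM in untreated ND replicates 1 to 4, highest in replicate 4, as was the members' mean. The other untreated ND libraries did not follow the same order. Replicate 1, lowest in the markers, had a members' mean of 2.39, and replicate 3 had the lowest members' mean (2.04). The marker sum was 471, 548, 459 and 280 CPM in PMA-treated HFD replicates 1 to 4, where replicate 4 was the lowest and replicate 2 the highest in both. In PMA-treated ND it was 669, 744, 689.8 and 511 CPM, so that replicate 2 was the highest in both, but replicate 4 had the lowest marker sum and replicate 3 the lowest members' mean (2.29). In untreated HFD it was 244, 307, 232 and 201 CPM, and replicate 4, lowest in the markers, had the highest members' mean (2.17). With PMA 4 of the 6 macrophage markers and 4 of the 6 neutrophil markers rose in ND skin, and 4 of 6 and 6 of 6 in HFD skin. Markers of other cell types fell with PMA. Adipocyte markers fell in 3 of 3 and sebocyte markers in 2 of 3 in each diet. Cartilage markers fell in 1 of 3 in ND and 3 of 3 in HFD skin, and 0 markers of these 3 lists rose. Over all genes tested 8.96% rose and 3.99% fell in ND, and 7.34% and 4.6% in HFD. With diet 1 of the 6 macrophage markers was lower in HFD in untreated skin and 1 in PMA-treated skin, and 0 were higher. Over all genes tested 1.06% and 1.26% were lower. None of the macrophage markers was at 0 in any group, and their part in the change of the members was not tested. Plasmacytoid dendritic cell markers, which include the member Bst2, summed to 23.7 to 33.7, 18.5 to 26.4, 21.5 to 32.1 and 17.3 to 24.3 CPM in the same 4 groups, listed in the order untreated ND, untreated HFD, treated ND, treated HFD. Klk1 was at 0 in all groups but PMA-treated ND. Of the 5 of these 6 markers that could be tested 1 fell with PMA in HFD skin and none rose. Their sum was highest in untreated ND replicate 3, untreated HFD replicate 2 and PMA-treated ND replicate 2. These libraries also had the highest skeletal muscle marker sums of their groups (5021, 3658 and 4598 CPM). In PMA-treated HFD it was highest in replicate 1, which had the lowest muscle sum (1585 CPM). The list includes Cox6a2, and the part of muscle in these sums was not tested. T cell and NK cell markers summed to 16.1 to 37.8 CPM over all 16 libraries, with Ncr1 at 0 in untreated HFD and PMA-treated ND. Of the 5 that could be tested none was called with PMA, and the estimate was lower for 4 in ND and for 5 in HFD skin (median log2 fold change -0.48 and -0.38).

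The interferons themselves were almost absent from the counts. None of 20 ligand genes had enough counts to be tested, and 15 had 0 counts in all 16 libraries. Ifnb1 had 3 counts in 1 library, Ifng 2 counts in 2 libraries and Ifnk, the keratinocyte interferon, 39 counts in 12 libraries. A library with 0 counts allows a level of up to 3 counts, so a lower level of any ligand was not detectable at this depth.

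Of 15 receptor and signalling genes, 3 rose and 1 fell with PMA in ND skin, and 3 rose and 0 fell in HFD skin. The shares over all genes tested, which apply to every list given here, were 8.96% higher and 3.99% lower in ND and 7.34% higher and 4.6% lower in HFD. Socs3, a feedback inhibitor of JAK signalling, went from 39.9 to 83.3 CPM in ND and from 35.9 to 79.7 in HFD. Irf8, a factor of myeloid cells, went from 10.8 to 22.7 CPM in ND and from 8.59 to 19.3 in HFD. Ifnlr1, the receptor of type III interferon, fell in ND from 36.1 to 23.2 CPM (edgeR adjusted p = 0.0261). The type I receptor chains were not called in any comparison: Ifnar1 was at 89.1, 65.7, 110.0 and 85.7 CPM and Ifnar2 at 11.3, 13.6, 17.4 and 13.7 CPM in that same order of groups. Nor was Irf1, at 19.7, 16.7, 25.8 and 20.7 CPM. Among 14 tested genes of nucleic acid sensing, 4 rose with PMA in ND and 3 in HFD skin, and 0 fell. Tmem173, which encodes STING, went from 9.03 to 26.2 CPM in ND (edgeR adjusted p = 0.00421), and Samhd1, which degrades deoxynucleotides, from 37.0 to 73.4.

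Interferon-stimulated genes outside the 40 gave larger changes in a few cases. Of 39 tested, 5 rose with PMA in ND and 9 in HFD skin, and 0 fell in either, against 8.96% and 7.34% of all genes higher. Ifitm3, which blocks entry of enveloped viruses, went from 34.2 to 116.4 CPM in ND, by 1.77 on the log2 scale (edgeR adjusted p = 2.4e-05). Slfn1, a Schlafen gene of immune cells, rose by 3.82 in ND and 3.95 in HFD, and Ifitm1 by 4.01 in HFD on the log2 scale. These changes start from few counts. Slfn1 went from 0.504 to 6.86 CPM in ND and from 0.403 to 6.37 in HFD, with 17 and 18 counts over the untreated groups. Ifitm1 went from 0.448 to 7.22 CPM in HFD, with 19 counts over the untreated group. Slfn2, another Schlafen gene, went from 12.1 to 38.4 CPM in ND and from 9.10 to 34.7 in HFD skin. Among 27 tested genes that lean towards interferon gamma, 3 rose with PMA in ND (Psmb8, Psmb10 and Wars) and 1 in HFD, Cd274, which encodes PD-L1 and went from 11.5 to 29.4 CPM (edgeR adjusted p = 0.0124). With diet, 1 gene of each of these last 2 lists fell in untreated HFD skin: the RNA helicase gene Znfx1 from 51.2 to 34.3 CPM (edgeR adjusted p = 0.0381) and the peptide transporter gene Tap2 from 68.2 to 45.2 CPM (edgeR adjusted p = 0.0413). In untreated skin the identifier prefix largely coincides with diet. In PMA-treated skin none of the ligand, receptor and signalling, sensing, interferon-stimulated or interferon-gamma lists held a gene called for diet.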

How the data were processed

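RNA from 16 mouse ears was amplified by SMART-Seq2, which keeps no strand and no molecular identifiers, so SDs and floors do not separate PCR copies from molecules. The authors deposited raw gene counts, used as deposited. Per the submitters' processing notes the tools were STAR 2.3 and featureCounts 1.5 and the genome GRCm38 (mm10); the sources used here state neither their settings nor the annotation. Genes were filtered by filterByExpr (minimum count 10, total 15), scaled by TMM and entered edgeR 4.0.16 (robust quasi-likelihood, R 4.3.3) in 1 fit of 4 group means, with 5 contrasts and Benjamini-Hochberg adjustment over 17604 genes at 0.05. SE is the absolute log2 fold change over the square root of F. Mean log2 CPM used a prior count of 2. Shares of genes with non-overlapping groups compare the 4 against 4 libraries.

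Values were given for up to 8 called members per contrast by size of change (mean CPM of at least 1) or, with none called, the 4 with the smallest p. Irf7, Irf9, Stat2, Isg15, Usp18, Cxcl10 and Ifi27 were named in any case. From each other list the called genes with the 3 largest changes were eligible, along with Ifnb1, Ifnk, Ifng, Ifnar1, Ifnar2 and Irf1 (1 further gene is not reported here); 3 list genes were not matched. Members, lists and markers were chosen with earlier results of these data known. Scripts were tested on simulated data. Alternatives were DESeq2 1.42.0, other scalings and filters, a replicate block, the identifier prefix, only the groups compared, leaving out mitochondrial genes, and each library left out.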

Additional observations from a re-analysis of the deposited data

Results flagged for a closer look

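In 13 of the 159 groups of 4 libraries with counts (8.18%), 1 library stood apart from the other 3 in a member by Dixon's test at 95%, 9 of them high and 4 low. For normally distributed values chance gives about 1 in 20 groups, a rate that need not hold for CPM of genes with low counts. A group with counts in 1 library alone is always flagged, as for Oas3 and Ifi44 in PMA-treated ND skin. The share is therefore not read as an excess. PMA-treated ND replicate 2 was high in Irf9 (101 CPM), Oas3 (5.27 CPM) and Cxcl10 (0.643 CPM). Untreated ND replicate 4 was high in Irf9 (87.4 CPM) and Isg15 (1.91 CPM), and untreated ND replicate 2 was low in Dhx58 (2.08 CPM). In untreated HFD skin replicate 1 was low in Irf9 (40.7 CPM) and high in Cmpk2 (8.28 CPM), and replicate 3 was high in Oas1g (1.31 CPM). In PMA-treated HFD skin replicate 2 was high in Trim25 (78.6 CPM) and replicate 4 low in Oas1b (1.13 CPM). In PMA-treated ND skin replicate 3 was low in Cmpk2 (2.46 CPM), and replicate 4 was high in Ifi44 (2.98 CPM), where the other 3 libraries had 0 counts.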

How the results depend on the processing

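Of 534 alternative values for 22 results on single members, 472 kept their direction and their side of the threshold. In the rest 58 lost the call, 4 gained one and 0 reversed. All 58 losses fell on the 3 results called for PMA in ND and the 7 in HFD. The other results had no call to lose. Oas1a in ND lost its call in 13 of 25 settings, Ifi35 in HFD in 10 of 25 and Oas1a in HFD in 0 of 25. Over the alternatives the members' median log2 fold change ranged from -0.41 to -0.18 for diet in untreated skin, 0.10 to 0.39 for diet with PMA, -0.04 to 0.21 for PMA in ND, 0.34 to 0.68 for PMA in HFD (0.34 over the 27 members past the stricter filter) and 0.21 to 0.58 for the interaction. DESeq2 called 1 member for diet with PMA (Cmpk2, lower), against 0 by edgeR. For PMA in ND skin the number called was 0 with the identifier prefix as a term and 1 (Ifi35) with only the groups compared in the fit, against 3, and for PMA in HFD skin it was 3 (Oas1a, Oasl2 and Rsad2) with the prefix, against 7. Leaving out each library in turn gave 0 to 1 members for diet in untreated and in PMA-treated skin, 1 to 4 for PMA in ND, 1 to 9 for PMA in HFD and 0 for the interaction. The cause was not tested.

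Libraries with the same replicate number mostly did not deviate together (24 pairs, r from -0.07 to 0.20, median 0.01, 2 over 0.1). This gave no clear sign that the numbers pair the samples, and weak correlations cannot exclude it. Between untreated and PMA-treated HFD the same-number r were 0.20, 0.01, 0.12 and 0.08, which include both values over 0.1. A library correlated best with its own number in 15 of 48 cases. With the replicate number as a block, 3 members were called for PMA in ND, 6 in HFD and 0 in the other comparisons. In HFD the block lost Zbp1 (edgeR adjusted p = 0.0809) and Trim30a (0.0521) and gained Ifi44.

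The number of genes called over the whole table also moved: with the prefix as a term it was 179 for diet in untreated skin and 453 for PMA in ND, against 691 and 2279. DESeq2 gave 1211, 887 and 24 for diet in untreated skin, diet in PMA-treated skin and the interaction, against 691, 387 and 1, and only the groups compared gave 175 for diet with PMA. Leaving out single libraries gave 336 to 889 and 116 to 436 for diet, 1205 to 2469 for PMA in HFD (2101 with all libraries) and 1 to 4 for the interaction, which was 2 with the block, the prefix or another filter. Low counts limit the precision of many members, of which 27 of 40 passed a stricter filter of 5 CPM in 4 libraries.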
